A study of Mus musculus and Homo sapiens with 20 samples.

Results

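Broad H3K27me3 domains held in common by mouse embryonic stem (mES) cells and bone marrow haematopoietic stem and progenitor cells (HSPCs) are described here. A domain was an autosomal stretch covered by H3K27me3 peaks in both wild-type (WT) mES cell libraries, with gaps of up to 1 kb joined, and at least 10 kb wide. It was called shared when at least 50% of its bases also lay under H3K27me3 peaks present in both WT HSPC libraries. Of 3620 mES cell domains of this width, 1906 were shared, which is 52.7% of the domains and 57.1% of their bases. The members were thus chosen by WT H3K27me3, and its levels in them are a description. Another pair of classes, built the same way, serves for comparison: 825 mES-only domains with under 10% of their bases under HSPC H3K27me3, and 427 HSPC-only domains with the reverse.

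The data were CUT&Tag peak lists, made by a method that brings a transposase to a chromatin mark through an antibody, so that DNA around the mark is cut and tagged. H2AK119ub and H3K27me3 were profiled in mES cells and in HSPCs, each Tet2 WT or Tet2 knockout (KO, Tet2-/-), with 2 libraries per group. TET2 is an enzyme that oxidizes 5-methylcytosine. The mES cells of both genotypes were grown in serum with LIF, CHIR99021 and PD0325901 and passaged off feeder cells. The HSPCs were lineage-negative, c-Kit-positive (LK) cells that were enriched on magnetic beads from marrow of mice aged 6 to 8 weeks. The study used mice of both sexes, and the labels do not give the sex behind each HSPC library. K562, a human leukaemia line, was profiled for H2AK119ub alone after a control siRNA (siControl) or one against MBD6 (siMBD6). The sources used here do not say how many mice or mES clones stood behind the 2 libraries of a group, so the spread between libraries may be technical.

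Polycomb repressive complex 2 (PRC2) trimethylates lysine 27 of histone H3, and Polycomb repressive complex 1 (PRC1) ubiquitinates the lysine of histone H2A that H2AK119ub names. Each complex can bind the mark of the other, and the pair keep developmental regulators silent. Unmethylated CpG islands are a well-known landing platform for both complexes in ES cells. Broad Polycomb domains are best known over the Hox clusters and other genes for transcription factors of body patterning.

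CpG-rich sequence inside these domains is shown first because H2AK119ub in HSPCs rose with CpG density across the domains. The following are the 300-bp windows with the most CpG dinucleotides, outside untranslated and non-coding exons, in the 2 widest shared domains and in the domain with the largest fall in H2AK119ub in KO mES cells. CpGs are in capitals, sequences are from GRCm38 (mm10 coordinates), plus strand, and 5.18 CpGs per 300 bp was the median over the shared domains.
Rhcg domain, chr7:79504960-79505259: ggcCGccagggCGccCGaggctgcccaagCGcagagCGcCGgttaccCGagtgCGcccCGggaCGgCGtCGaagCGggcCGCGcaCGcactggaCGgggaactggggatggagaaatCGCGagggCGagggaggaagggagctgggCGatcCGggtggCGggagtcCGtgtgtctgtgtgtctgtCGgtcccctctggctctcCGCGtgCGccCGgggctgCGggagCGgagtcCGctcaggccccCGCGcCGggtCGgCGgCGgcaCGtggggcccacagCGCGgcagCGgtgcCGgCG
Hoxb domain, chr11:96271617-96271916: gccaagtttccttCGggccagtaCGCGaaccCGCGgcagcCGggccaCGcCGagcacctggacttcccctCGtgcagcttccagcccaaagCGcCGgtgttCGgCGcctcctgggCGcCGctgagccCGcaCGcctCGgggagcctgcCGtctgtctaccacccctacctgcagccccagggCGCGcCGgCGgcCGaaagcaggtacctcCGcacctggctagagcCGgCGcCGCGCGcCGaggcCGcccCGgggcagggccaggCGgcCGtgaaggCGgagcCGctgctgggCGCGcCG
Rimklb domain, chr6:122491345-122491644: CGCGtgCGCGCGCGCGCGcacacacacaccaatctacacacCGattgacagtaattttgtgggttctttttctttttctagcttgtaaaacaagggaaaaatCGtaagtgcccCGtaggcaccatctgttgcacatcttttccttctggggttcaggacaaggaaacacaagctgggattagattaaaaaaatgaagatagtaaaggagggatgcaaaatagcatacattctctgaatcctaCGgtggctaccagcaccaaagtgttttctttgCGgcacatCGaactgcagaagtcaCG
The Rhcg window held 44 CpGs and lay in an intron of the long non-coding RNA gene Mir9-3hg. The Hoxb window held 40 CpGs, and all 300 bases were coding sequence of Hoxb9. The Rimklb window held 15 CpGs in an intron of that gene, 7266 bp from its start. Many of these lie in a short CG repeat at its first bases, and the window was 45.7% GC. In all 16 mouse libraries the Rhcg window was fully under peaks. The Hoxb9 window was fully covered in every mouse library except the second WT HSPC H2AK119ub library, where 13.3% of it was covered. The Rimklb window was 87% and 100% under H2AK119ub in WT mES cells against 52.7% and 35% in KO mES cells. Its domain was chosen for its fall, so a lower KO value there was to be found.

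The shared domains spanned 38.1 Mb, or 1.59% of the autosomes. Their median width was 16.05 kb (quartiles 12.3 and 23.6 kb), and the widest reached 127 kb. Domains of 10 to 15 kb were shared in 845 of 1871 cases (45.2%), and those of 30 to 50 kb in 193 of 280 (68.9%). Width was part of the rule for entry but not for sharing. The median CpG density was 17.3 per kb in shared, 13.6 in mES-only and 13.4 in HSPC-only domains, against 8.51 per kb over the autosomes. Repeats, read as lower-case bases of the genome sequence, took up 33.5% of the autosomes. At the median they took up 16.6% of shared, 17.2% of mES-only and 22.1% of HSPC-only domains. Coding gene starts lay in 64.5% of shared domains, compared with 28.1% of mES-only and 37.0% of HSPC-only domains. There were 1036 shared domains with 1 start, 152 with 2, 42 with 3 or more and 676 with none, and 279 of the last group had no base inside a coding gene. Chromosome 11 held the most shared domains (189, or 1.55 per Mb) and chromosome 16 the fewest (38, or 0.387 per Mb).

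Values near the limits of the rule were as follows. Just inside the width limit lay the Sec14l3 domain at 10.012 kb and the Syt16 domain at 10.017 kb, and just outside it a stretch near Sdsl at 9.992 kb. At the overlap limit, the Catsper4/Cnksr1 domain (50.1% under HSPC H3K27me3) was a member and the Gm5294 domain (49.99%) was not. Most members were far from this limit, since the median overlap was 89.5% and 934 members reached 90%.

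Shared domains held 1503 of 20807 autosomal coding gene starts, a background of 7.22% for the lists that follow. Of 39 Hox genes, the homeodomain factors that set identity along the body axis, 38 had their start in a shared domain, spread over 8 domains with a median width of 56.1 kb. Of 118 other homeobox genes, 98 (83.1%) were members, among them Lmx1b, Nkx2-5, Pdx1, Isl1 and Otx2. The Pax family of paired-box factors had 8 of 9 members, with Pax8 outside. The T-box family had 10 of 16 (62.5%) and the GATA family 4 of 5, with Gata4 outside. Sox genes reached 9 of 18 (50%), forkhead genes 20 of 41 (48.8%) and basic helix-loop-helix (bHLH) lineage genes 24 of 47 (51.1%). The bHLH members included Myod1, the muscle determination factor, and the neural factors Neurog1 and Neurog2.

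Signalling and membrane genes were also frequent. Of 42 genes on the list of Wnt ligands and antagonists, 23 (54.8%) started in shared domains, most of them ligands, such as Wnt1, Wnt3a and Wnt5a. FGF, BMP, GDF and hedgehog ligands and antagonists gave 19 of 48 (39.6%), including Shh, Ihh and Fgf8. Voltage-gated ion channel genes gave 22 of 56 (39.3%), among them Kcna1 and Cacna1h. Together with the lists described next, these lists hold 280 of the 1503 gene starts in shared domains, so most such starts lay outside them.

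**Figure D1:**
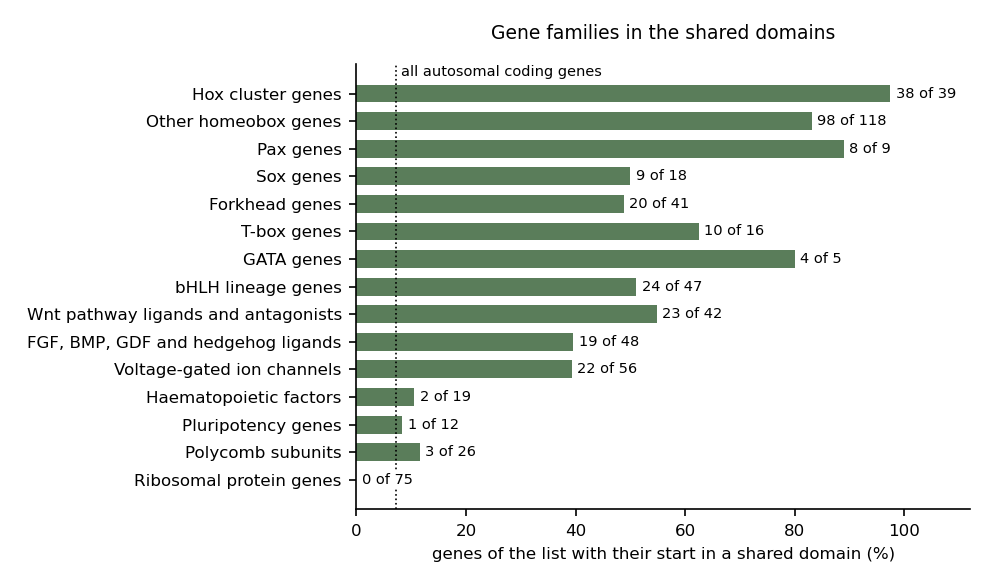
Percent of the genes of each list (y axis) whose annotated start lies in a shared domain (x axis, %), with the counts beside the bars and a dotted line at the share of all autosomal coding genes, 7.22%. Hox, Pax, other homeobox and GATA genes lie at 80% or above and ribosomal protein genes at 0 of 75.

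Lists of genes that work in 1 of the cell types lay near the background, and ribosomal protein genes below it. Of 19 haematopoietic factors, 2 (10.5%) were in shared domains: Gata2 and Erg, both transcription factors of blood stem cells. Of the 19, 10 started in some mES cell domain of 10 kb or more, beside 2322 of all 20807 autosomal coding genes. In the Gata2 domain (24.2 kb), H2AK119ub covered 100% and 100% of the bases in WT mES cells and 92.8% and 94.0% in WT HSPCs, so both cell types were high. In the Erg domain (22.3 kb) the values were 66.7% and 53.1% in WT mES cells and 41.8% and 36.7% in WT HSPCs. Of 12 pluripotency genes, the 1 member (8.33%) was Esrrb, an orphan nuclear receptor of naive ES cells. Its 17.6-kb domain was 75.9% and 79.6% under H2AK119ub in WT mES cells and 79.7% and 85.9% in KO mES cells. In HSPCs it was 2.85% and 5.69% covered in WT and 0% and 9.27% in KO libraries, although H3K27me3 covered 80.0% and 88.0% of it in WT HSPCs. Pou5f1 and Lin28a started in HSPC-only domains, 2 of the 12 (16.7%) beside 0.86% of all autosomal coding genes. Among 26 genes for Polycomb subunits 3 (11.5%) were members, among them the chromobox genes Cbx2 and Cbx8 of canonical PRC1. None of 75 ribosomal protein genes was.

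MicroRNA genes were present too. RefSeq hairpins on the autosomes of GRCm38 numbered 919, and 54 of them (5.88%) lay whole within 41 shared domains. Another 17 lay in mES-only and 10 in HSPC-only domains. The share in shared domains was below the 7.22% of coding gene starts, and these domains span 1.59% of the autosomes. Overlapping hairpins on opposite strands, such as Mir9-1 and Gm25641, were counted separately. Mature sequences that share a seed (bases 2 to 8, in capitals) and come from at least 2 shared domains are printed because the same seed recurs across separate Polycomb domains.
miR-9-5p, from Mir9-1 and Mir9-3: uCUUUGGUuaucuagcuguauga
miR-9-3p, from Mir9-1 and Mir9-3: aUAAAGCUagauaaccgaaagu
miR-10a-5p, from Mir10a: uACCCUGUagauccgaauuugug
miR-10b-5p, from Mir10b: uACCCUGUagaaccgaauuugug
miR-196a-5p, from Mir196a-1 and Mir196a-2: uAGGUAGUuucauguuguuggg
miR-196b-5p, from Mir196b: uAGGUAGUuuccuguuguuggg
miR-193a-3p, from Mir193a: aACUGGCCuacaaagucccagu
miR-193b-3p, from Mir193b: aACUGGCCcacaaagucccgcu
The miR-10 and miR-196 genes lie inside the Hox domains, with Mir10a and Mir196a-1 in the Hoxb domain, Mir196b in the Hoxa domain, Mir196a-2 in the Hoxc domain and Mir10b in the Hoxd domain. The mature 5p arm of Mir9-3 (chr7:79505279-79505301) lies just past the CpG-rich window printed for the widest domain. Mir9-1 lay in a 30.6-kb domain near Rhbg that was 92.3% and 85.2% under H2AK119ub in WT mES cells and 93.2% and 82.8% in WT HSPCs. Both cell types were thus high over the Mir9-1 domain. The Mir193b domain, 16.6 kb wide, had 88.0% and 78.9% in WT mES cells against 48.1% and 25.2% in WT HSPCs.

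H2AK119ub was broad over the shared domains in mES cells and patchier in HSPCs. In the 4 mES cell libraries, peaks of H2AK119ub covered 81.4% and 79.8% of the shared bases in WT and 80.9% and 79.6% in KO cells. In HSPCs they covered 50.7% and 40.4% in WT and 54.5% and 56.3% in KO cells. At least 50% of the domain was covered in all 4 mES libraries for 1634 members (85.7%), and in all 4 HSPC libraries for 626 (32.8%). Coverage was under 10% in all 4 HSPC libraries for 80 members, and 4 of these held no HSPC peak of H2AK119ub at all, whereas no member was under 10% in all 4 mES libraries. The cell types also differed in list length, since H2AK119ub peaks covered 9.77% to 10.8% of the autosomes in mES and 5.78% to 7.28% in HSPC libraries. Divided by each library's autosomal share, shared-domain coverage was 7.53-fold and 7.73-fold in WT mES cells and 7.71-fold and 8.14-fold in KO. In HSPCs it was 7.12-fold and 6.99-fold in WT and 7.87-fold and 7.74-fold in KO. On this scale the cell types lay close in WT and overlapped in KO. Read depth cannot be had from peak lists, and fewer marked cells and less mark per cell cannot be told apart in bulk libraries.

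The shared class was higher in H2AK119ub than the mES-only class in every library of both cell types. In mES cells the mean over the 2 WT and 2 KO libraries was 80.4% ± 0.87 (SD, n = 4) in shared and 73.1% ± 1.69 in mES-only domains. The difference of 7.28 percentage points had the same sign in 4 of 4 libraries, and an exact sign-flip permutation test (two-sided) gave p = 0.125, the smallest that 4 libraries allow (adjusted p = 0.333 over 8 tests). In HSPCs the means were 50.5% ± 7.10 and 34.7% ± 3.66 (n = 4, again 2 WT and 2 KO libraries). The difference of 15.8 points had p = 0.125 by the same exact test and the same adjusted p. Each SD here takes in the difference between genotypes. Shared domains carry H3K27me3 in HSPCs by the rule and mES-only domains do not. With both classes limited to widths of 10 to 15 kb the differences were 3.58 points in mES cells and 14.3 points in HSPCs. HSPC-only domains were 28.0% and 26.7% covered in WT mES cells and 30.8% and 23.4% in WT HSPCs.

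**Figure D2:**
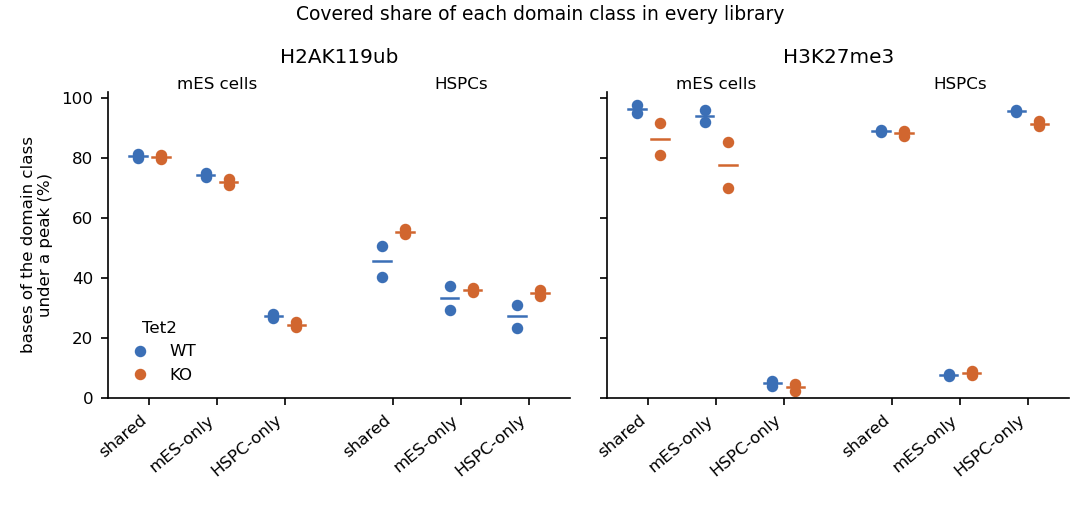
Percent of the bases of shared, mES-only and HSPC-only domains (x axis) under a peak (y axis, %) in every library, with H2AK119ub on the left and H3K27me3 on the right. Points are libraries, 2 per group, and short lines are group means. For H2AK119ub the shared class lies near 80% in all mES libraries and between 40.4% and 56.3% in HSPCs. WT H3K27me3 chose the classes.

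Within the shared domains, CpG density separated members in HSPCs and hardly in mES cells. With the members ranked by CpG density and cut into 3 equal groups, the group with the fewest CpGs was low. There H2AK119ub covered 35.5% and 24.6% of the bases in WT HSPCs, and in the group with the most, 64.8% and 55.4%. The KO HSPC libraries ran from 38.4% and 40.8% in the low group to 69.2% and 70.5% in the high group. In WT mES cells the same low and high groups had 79.5% and 77.4% against 82.0% and 81.0%. Spearman's rho across the 1906 members between CpG density and H2AK119ub was 0.479 to 0.518 in the 4 HSPC libraries and 0.122 to 0.189 in the 4 mES libraries. These are descriptions, since all libraries were scored on the same regions and base composition also affects how peaks are sequenced and called.

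H2AK119ub in HSPCs was highest next to gene starts but was not confined to them. In tiles of 1 kb lying within 1 kb of a coding start, WT HSPC libraries were 74.4% and 64.0% covered, and the KO libraries 81.6% and 82.8%. Beyond 20 kb from any start they were 38.6% and 27.01% in WT and 42.4% and 44.2% in KO. In mES cells the tiles near starts were 88.9% and 90.8% covered in WT, and those beyond 20 kb still 83.1% and 81.3%. Domains with 2 or more coding starts had 70.3% and 63.0% in WT HSPCs, against 39.5% and 29.1% in those with none. H3K27me3 in WT HSPCs stayed at 86.8% and 87.9% beyond 20 kb, where H2AK119ub was low.

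**Figure D3:**
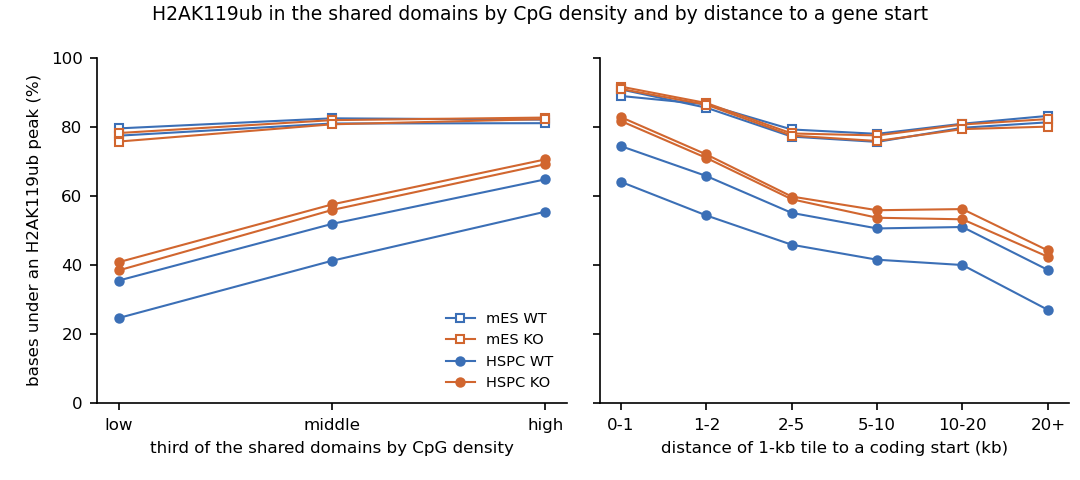
Percent of bases under an H2AK119ub peak (y axis) in 3 equal groups of the shared domains by CpG density (left) and in 1-kb tiles by distance to the nearest coding start in kb (right). Each line is 1 library, with open squares for mES cells and filled circles for HSPCs. The HSPC lines rise with CpG density, from 24.6% to 40.8% in the low group to 55.4% to 70.5% in the high group, and lie lowest beyond 20 kb from a start, while the mES lines stay between 75.6% and 91.6%.

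The widest members show the same contrast. The Rhcg domain on chromosome 7 (127 kb), which holds the start of the ammonium transporter gene Rhcg and of Mir9-3hg, was 87.6% and 87.6% under H2AK119ub in WT mES cells and 69.0% and 58.1% in WT HSPCs. The Hoxb domain on chromosome 11 (117 kb, Hoxb9 to Hoxb1) had 88.1% and 89.4% in WT mES cells and 59.5% and 53.4% in WT HSPCs. The Hoxc domain on chromosome 15 (95.4 kb) had 92.6% and 88.9%, and 78.4% and 73.5%. The Lmx1b domain (97.4 kb), named for a LIM-homeobox factor of limb patterning, had 97.9% and 97.6%, and 74.4% and 57.3%. In all 4 domains every WT HSPC library was below every mES library.

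A few wide members had little H2AK119ub in HSPCs. The Iqsec3 domain (88.8 kb, 10.9 CpGs per kb) was 80.1% and 75.6% covered in WT mES cells but 5.88% and 4.78% in WT HSPCs. The 89.9-kb domain without a coding start at chr4:125240383-125330262, with Zc3h12a the nearest gene, was at 71.5% and 75.6% against 11.2% and 4.82%. H3K27me3 in WT HSPCs covered 76.4% of the Iqsec3 domain in both libraries, and 80.7% and 81.5% of the domain near Zc3h12a. Some narrow members had no H2AK119ub peak in either WT HSPC library, among them Reln, which encodes a secreted guidance protein of neurons (51.4% and 42.0% in WT mES cells), and Qrfpr, a neuropeptide receptor gene (41.0% and 36.8%). Few members were low in mES cells, and the lowest were Tspan12 (18.2% and 13.97%), Cxxc4 (22.2% and 13.5%) and a stretch near Igsf9b (9.44% and 19.6%).

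Coverage was highest at the centre of the shared domains. With each domain divided into 20 parts, H2AK119ub in mES libraries rose from 68.0% to 71.1% in the outermost parts to 83.5% to 84.7% at the centre. In HSPC libraries it rose from 32.8% to 45.3% at the edges to 43.3% to 59.8% at the centre. In the first kilobase outside, it was 25.5% to 29.7% in mES and 16.2% to 20.3% in HSPC libraries, and 10 kb outside it was 42.4% to 45.3% and 22.7% to 29.6%. The edges come from WT H3K27me3 in mES cells, so its own step there (from 96.2% and 97.8% inside to 6.34% and 31.7% outside) is fixed by the rule.

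**Figure D4:**
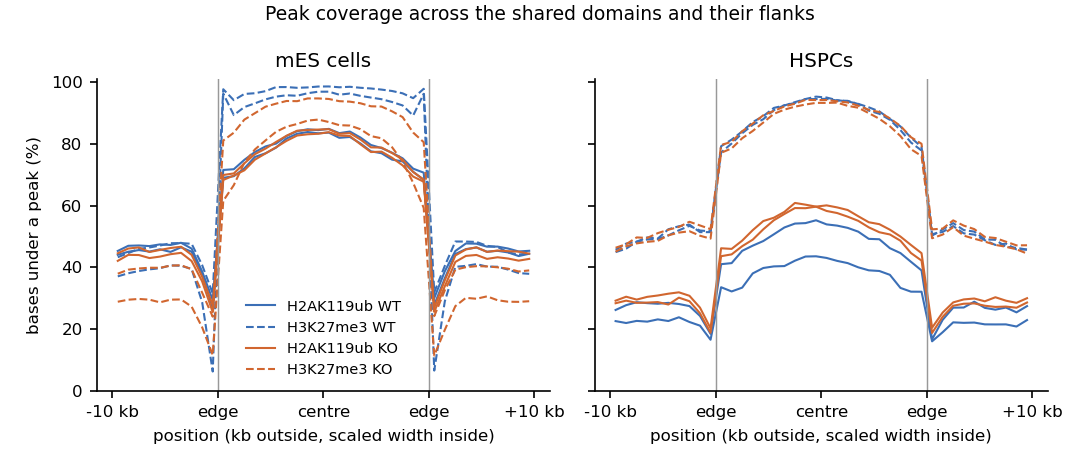
Percent of bases under a peak (y axis) along the shared domains, from 10 kb outside one edge to 10 kb outside the other, with the inside scaled to 20 equal parts, in mES cells (left) and HSPCs (right). Each line is 1 library, solid for H2AK119ub and dashed for H3K27me3. H2AK119ub is highest at the centre in both cell types, and the dashed KO lines in mES cells lie below WT most at the edges.

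Loss of Tet2 left H2AK119ub coverage of the shared domains in mES cells nearly level, with KO minus WT at -0.34 percentage points (80.6% ± 1.09 in WT and 80.2% ± 0.97 in KO, SD, n = 2 each). The exact two-sided test by permutation of libraries gave p = 0.667 (adjusted p = 0.667). The groups overlapped, and the sign turned to 0.14 points without chromosomes 6 and 13. Both KO values lay below both WT values in 392 members (20.6%) and above them in 369 (19.4%), beside a background over all 3620 mES cell domains of 22.9% and 17.8%. These shares are close to the background in both directions. Without 1 library at a time the first count was 594 to 741 and the second 574 to 718. Of 34343 1-kb bins marked in at least 1 library inside the members, 519 (1.51%) were lost in KO and 440 (1.28%) gained, against 4.06% and 2.92% of all marked bins.

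One chromosome stood apart in mES cells. On chromosome 6, 73 of 122 shared domains (59.8%) had lower H2AK119ub in both KO libraries, and their covered share was 82.4% and 80.4% in WT and 76.4% and 73.9% in KO cells, a difference of -6.28 points. On the other 18 autosomes the difference ran from -1.88 to 1.24 points. For H3K27me3 the difference on chromosome 6 was -13.8 points, and on the other autosomes -11.9 to -7.36 points. The cause was not tested. Among members whose groups did not overlap, the largest falls were in Rimklb (58.8% and 72.1% in WT, 18.6% and 10.0% in KO) and Cfap100 (99.8% and 96.0%, then 61.9% and 44.9%), both on chromosome 6. A domain near Tpra1 on chromosome 6 followed (89.6% and 91.5%, then 50.1% and 47.1%). The Cdc20b domain on chromosome 13 went from 87.8% and 90.5% to 53.0% and 41.9%. The largest rises were also partly on chromosome 6. Bhlhe41, a bHLH repressor of the circadian system, went from 53.6% and 42.5% to 82.9% and 80.6%, and Pthlh, which encodes parathyroid hormone-related protein, from 43.0% and 50.4% to 75.1% and 73.7%.

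**Figure D5:**
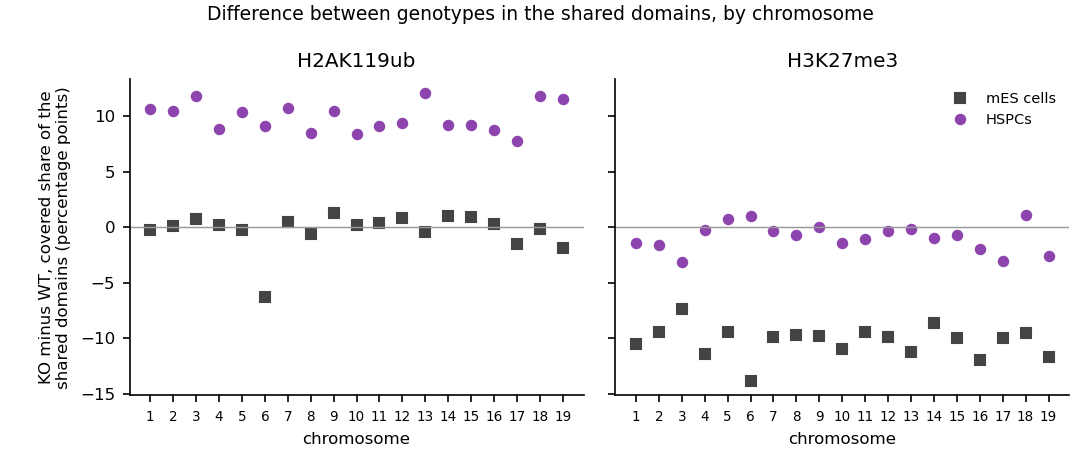
KO minus WT difference in the covered share of the shared domains (y axis, percentage points) for each autosome (x axis), with H2AK119ub on the left and H3K27me3 on the right. Squares are mES cells and circles HSPCs, each the difference of 2-library means. Chromosome 6 lies at -6.28 points for H2AK119ub in mES cells, while all HSPC values for that mark lie between 7.79 and 12.05.

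In HSPCs, H2AK119ub covered more of the shared domains in both KO libraries than in either WT library. The means were 45.6% ± 7.28 in WT and 55.4% ± 1.26 in KO (SD, n = 2 each), a difference of 9.83 points. The two-sided exact permutation test gave p = 0.333, the smallest possible with 2 against 2 (adjusted p = 0.381). The size of the difference rested on the WT libraries, of which the second was also the shortest list. It was 4.68 points without the second WT library and 15.0 points without the first. Divided by each library's autosomal share, coverage was 7.12-fold and 6.99-fold in WT and 7.87-fold and 7.74-fold in KO libraries, and the groups still did not overlap. The difference lay between 7.79 points (chromosome 17) and 12.05 points (chromosome 13) on every autosome. The KO minus WT difference was larger in HSPCs than in mES cells by 10.2 points. The exact permutation test within cell type gave p = 0.111 (smallest possible 0.0556, adjusted p = 0.333). This gap was 5.03 points without the second WT HSPC library and 15.3 without the first. Sex and genotype cannot be told apart in the HSPC libraries, as the X chromosome values given at the end show.

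Domain by domain, 946 of 1906 members (49.6%) were higher in both KO HSPC libraries and 41 (2.15%) lower, beside a background over all mES cell domains of 38.4% and 4.25%. In mES-only domains 20.2% were higher and 8.12% lower, and in HSPC-only domains 45.2% and 2.58%. Without the second WT library 1013 members (53.1%) were higher against 42.3% of all domains, and without the first 1579 (82.8%) against 72.3%. Of 27302 marked 1-kb bins within the members, 1680 (6.15%) were gained and 316 (1.16%) lost, next to 4.76% and 2.7% of all marked bins. No test of these shares against the background was made.

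The largest rises in HSPCs, again among members whose groups did not overlap, reached 48.4 points. Msx2, a homeobox factor of craniofacial and limb tissue, went from 20.99% and 4.95% in WT to 53.9% and 46.3% in KO. The other domains held no coding start, and the largest rise lay 4964 bp from the start of Gm10320 on chromosome 13. Rises of 36.8 to 38.9 points were found in domains 2865 bp from Isl1, 55009 bp from Pax2 and 203334 bp from Meis2. In each of these the second WT library was the lowest. H3K27me3 in both WT HSPC libraries covered 100% of these 5 domains. Among members whose WT and KO libraries did not overlap, the largest falls were smaller, led by the domain near Slc12a5 (100% and 99.3% in WT, 78.4% and 85.0% in KO) and by one near Hmcn2 (52.6% and 45.4%, then 28.7% and 36.2%). Ebf4 was the only one of these 5 named for a start within it.

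By gene list, the 8 domains of Pax genes went from 45.2% and 33.6% in WT HSPCs to 61.1% and 61.4% in KO, and the 95 domains of other homeobox genes from 61.9% and 49.2% to 68.2% and 69.0%. The Hox domains went from 66.9% and 60.2% to 73.9% and 73.3%. In mES cells the Hox domains had 84.7% and 85.2% in WT and 89.3% and 89.5% in KO. Of the 14 lists with a member, 12 were higher in both KO HSPC libraries than in both WT libraries. The shared class as a whole was higher too (50.7% and 40.4% in WT, 54.5% and 56.3% in KO), so this count follows the class. The 1 lower list was the haematopoietic factors (68.4% and 66.6% in WT, 65.2% and 66.1% in KO). It holds only 2 domains, and its nearest WT and KO values differed by under 1 point. In mES cells the genotypes overlapped over the whole class. In mES cells 7 lists were higher and 2 lower, and the latter were the voltage-gated channels (88.2% and 86.2%, then 85.1% and 84.1%) and the Wnt list, which differed by under 1 point between any 2 libraries.

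Gene promoters, taken as 1 kb on each side of a start, touched H2AK119ub peaks nearly throughout. Of the 1503 in shared domains, 1498 and 1497 did so in WT mES cells and 1500 in each KO library, compared with 69.2% to 70.3% of all autosomal promoters. The mES difference was 0.17 points (p = 0.333 by the exact permutation test, adjusted p = 0.381). In HSPCs, 1431 and 1349 did so in WT and 1461 and 1466 in KO cells, a difference of 4.89 points with p = 0.333 by the same exact test (adjusted p = 0.381). Over all autosomal promoters the HSPC values were 70.6% and 65.6% in WT and 72.1% and 72.7% in KO, so the groups were also apart there. The HSPC difference in the shared domains was 2.16 points without the second WT library and 7.62 points without the first. Lost and gained promoters were few, with 1 lost and 2 gained in mES cells (background 0.88% and 0.99% of all promoters) and 1 lost and 18 gained in HSPCs (background 0.341% and 1.7%). In all 8 mouse H2AK119ub libraries together 1303 of the 1503 promoters (86.7%) touched a peak, against 51.3% of all promoters.

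H3K27me3 in KO cells is given without a test, because its WT libraries chose the members. In mES cells it covered 95.1% and 97.7% of the shared bases in WT and 91.4% and 80.8% in KO cells. The second KO list was also the shortest (6.17% of the autosomes against 7.79% to 9.58% in the other 3), and the difference of -10.3 points became -4.95 without it. Of the members, 1222 (64.1%) were lower in both KO libraries and 12 higher, beside 64.4% and 0.58% of all mES cell domains. When members were rebuilt from 1 WT library and measured in the other, coverage was 96.1% in the unused WT library and 89.95% and 79.0% in KO, or, the other way round, 87.0% in WT and 85.7% and 73.3% in KO. At least 50% of the domain stayed covered in both KO libraries in 1812 members (95.1%), compared with 83.3% of mES-only domains.

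The difference in mES cells was larger at the edges, which WT libraries set, than at the centre. In the outermost parts of the domain KO libraries had 80.8% and 60.4% against 96.2% and 97.8% in WT, and at the centre 94.6% and 87.5%, against 96.9% and 98.6% at the centre in WT. The lowest members in KO were a domain near Adgrd1 on chromosome 5 (83.3% and 89.6% in WT, 14.3% and 10.2% in KO), one near Grik4 on chromosome 9 (80.7% and 93.2%, then 22.2% and 4.34%) and Cfap100. In the domain near Adgrd1, H2AK119ub was still 85.4% and 80.3% in KO mES cells. In HSPCs the same domain had 95.6% and 90.5% of H3K27me3 in KO.

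In HSPCs, H3K27me3 of the shared domains was 88.6% and 89.3% in WT and 89.1% and 87.3% in KO cells. The difference of -0.72 points was smaller than the gap between the KO libraries, and it turned to 0.16 without the second KO library. Both KO values were lower in 400 members (20.99%) and higher in 327 (17.2%), beside 25.1% and 18.8% of all mES cell domains. Among the lowest in KO were Fcrlb (62.2% and 61.4% in WT, 32.4% and 27.4% in KO) and Adgra2 (53.9% and 63.2%, then 33.8% and 32.1%). Both entered near the overlap limit, at 53.7% and 52.3%.

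The shared domains were also read in human cells by gene symbol. Of the member genes, 1394 had an autosomal human coding gene of the same symbol. In K562 cells H2AK119ub touched the promoters of 67.3% and 68.4% of these after siControl and 74.6% and 76.2% after siMBD6, a difference of 7.53 points (two-sided exact permutation test, n = 2 each, p = 0.333, adjusted p = 0.381). All 15158 human genes matched by symbol had 37.0% and 38.2%, then 44.7% and 45.8%. Gained promoters made up 3.52% of the members (49 genes) and lost ones 0.287% (4 genes), against a background of 3.44% and 0.416%, so the member share was near the background. With all lists cut to the shortest the difference was 5.06 points.

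The labels were checked against markers. H3K27me3 touched the promoters of 3 of 8 pluripotency genes in each WT mES library and 6 of 8 in each WT HSPC library. It touched 8 of 9 HSPC marker promoters in WT mES cells and 7 and 6 of 9 in WT HSPCs, a difference of at most 2 genes. Over all autosomal promoters it touched 48.4% and 50.9% in WT mES cells and 60.5% and 62.7% in WT HSPCs. The HSPC markers were thus not below this background in HSPCs, and they do not tell the HSPC label apart. Both erythroid marker promoters were free of H3K27me3 in all 4 HSPC libraries. The 3 fibroblast marker promoters were touched in all 8 mES and HSPC libraries, and the feeder-cell share of the mES libraries was not tested. Replicates of a group shared 16 to 69 peaks with identical ends, out of 85121 to 167378 peaks per mouse library, so neither was a copy of the other.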

How the data were processed

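CUT&Tag peak lists of 20 libraries (10 groups of 2, grouped by the GEO labels) were used. Each deposited list gives start and end positions only, with no score, count or p-value, so read depth and counting error are unknown. The authors aligned reads to mm10 or hg38 with Drosophila spike-in DNA, and the labels' processing notes name Trimmomatic 0.39, Bowtie2 2.4.1 and HOMER 4.9. The study's methods describe MACS2 broad peaks, and which caller made the lists is not settled. A list of positions carries no spike-in scaling.

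Overlapping peaks were merged and the percent of bases covered was computed per library with Python 3.11.15, numpy 2.4.6 and pandas 2.3.3, and membership was recounted with bedtools 2.31.1. Genes came from GENCODE M21 (mouse) and 44 (human), sequences from GRCm38.p6 and RefSeq. A domain was counted lower or higher when both KO values lay beyond both WT values, a 1-kb bin was marked when at least 50% covered, and a bin or promoter was lost or gained when both libraries of 1 genotype had it and neither of the other. Exact two-sided permutation tests over libraries (scipy 1.17.1) were adjusted by Benjamini-Hochberg over 8 tests, and none could reach 0.05. The scripts were tested on simulated lists. Alternatives covered width, overlap, gaps, peak size, list length, scaling, chromosomes and single libraries. The members and gene lists were chosen with earlier results of these data known. Domains were named by the coding starts they hold, otherwise by the nearest. Those described are the 10 widest, the 3 widest without a coding start, the 5 largest rises and 5 largest falls per cell type, the 5 lowest per mark, the 3 nearest each limit, and gene list members. Some items are not reported here.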

Additional observations from a re-analysis of the deposited data

Results flagged for a closer look

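In the 427 HSPC-only domains the KO minus WT difference in H2AK119ub coverage was 10.8 percentage points larger in HSPCs than in mES cells, because every HSPC KO library was above both WT libraries and every mES KO library below them. The WT libraries of these cells were at 30.8% and 23.4% in HSPCs and 28.0% and 26.7% in mES cells, and the KO libraries at 33.98% and 35.8%, and 25.2% and 23.5%. The difference was not tested.

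The X chromosome, which the shared domains leave out, carried more of both marks in KO than in WT HSPC libraries. H2AK119ub peaks covered 2.51 Mb and 2.69 Mb of it in KO and 0.541 Mb and 0.329 Mb in WT libraries. H3K27me3 peaks covered 24.3 Mb and 21.7 Mb in KO and 1.05 Mb and 1.07 Mb in WT libraries. The autosomal domains described above hold none of this sequence. The labels do not give the sex of the mice behind each library, and whether it differed between the genotypes was not tested. Sex and genotype therefore cannot be told apart in the HSPC comparisons, those on autosomes included.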

How the results depend on the processing

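Under other settings 126 repeats kept direction and call, 11 moved a count by over 1.5 times and 5 changed sign. The KO minus WT difference in H2AK119ub of the shared domains in mES cells (-0.34 points) turned to 0.14 without chromosomes 6 and 13 and to 0.30 (a difference in fold) after division by the autosomal covered share, and ran from -1.11 to 0.43 without 1 library at a time. The H3K27me3 difference in HSPCs ran from -1.59 to 0.16 in the same way. The cause was not tested. The number of shared domains was 3966 with a minimum width of 5 kb and 660 with 20 kb. Without 1 library at a time, members lower in H2AK119ub in KO mES cells numbered 594 to 741 and members higher 574 to 718, and members higher in KO HSPCs 1013 to 1579, counts that rise because fewer libraries have to differ. With the replicate number as a block the differences were -0.34 points in mES cells and 9.83 points in HSPCs, each with p = 0.5 by exact permutation within pairs, the smallest this allows. Deviations of same-numbered libraries correlated at 0.0120 and 0.0290 for H2AK119ub in mES cells and HSPCs and at -0.151 and -0.0656 for H3K27me3, so the numbers were not taken to pair libraries. With the pairing crossed, 1503 members were lower in H3K27me3 in both mES pairs, against 1259 with the numbers as given, a comparison chosen after seeing the data, as were the counts without 1 library. Missing depth limits every value here, since a stretch without a peak may be unmarked or under-sequenced.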
